A study of Mus musculus with 24 samples.

Results

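Retinal ganglion cells carry the signal of the retina to the brain through the axons of the optic nerve, and in the mouse they are the earliest retinal neurons to be born. The transcription factor Atoh7 makes progenitors competent for this fate, Pou4f2 and Isl1 then drive ganglion cell differentiation, and Pou4f1 and Pou4f3 act later in subsets of the cells. Mature ganglion cells fall into many subtypes, which differ in the factors they keep, in their dendrites and in their targets.

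Here 8 genes used as markers of these cells were followed in mouse retinal organoids (MROs). They comprise the POU domain transcription factors Pou4f1, Pou4f2 and Pou4f3, the LIM homeodomain factor Isl2, the helix-loop-helix factor Ebf3, the RNA-binding protein Rbpms, the synuclein Sncg and the cell surface glycoprotein Thy1. They were taken from the tables by symbol and are 8 of the 46603 annotated genes in the count tables, which also hold 79999 assembled loci. All 8 were found.

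The MROs were wildtype, of the Control genotype, and were derived from E14Tg2a mouse embryonic stem cells with a protocol in which the young neuroepithelial aggregate is cut into 3 parts. By the study's methods all MROs of this protocol received EC23, a synthetic retinoid analog, early in culture and before the earliest timepoint. The labels give water, as a solvent, as the sole addition. No group was treated otherwise. A library was made from the total RNA of each individual organoid after depletion of ribosomal RNA, with a strand-specific kit, and the timepoints D20, D22, D25 and D30 (day of culture) are each covered by 6 organoids. All 24 came from 1 independent experiment, so the spread given here is that between organoids of one experiment and does not cover differences between experiments.

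The depth per organoid, as reads assigned to a gene or locus, lay between 13634846 and 19477108. Markers of other retinal cells were well represented. The summed level of 8 photoreceptor markers, led by Crx, was 881 to 1318 CPM (read counts scaled to a common library size) at D20 and 3126 to 5673 CPM at D30. In bulk RNA of this kind, fewer cells of a type and less RNA per cell cannot be told apart. Nor can either be told from a smaller share of the library as RNA of other cells grows.

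Sncg and Pou4f1 were the members that followed each other most closely over the 24 organoids, as described further on. Their promoters, the 250 bases before the transcription start in RefSeq on build GRCm38.p6, are shown because these genes moved together. Capitals mark matches to CANNTG, the E-box core read by helix-loop-helix factors such as Atoh7, and to TAAT, the core read by homeodomain factors, each searched on both strands, where TAAT on the other strand reads ATTA. The Sncg sequence is chr14:34374670-34374919 and that of Pou4f1 is chr14:104468000-104468249, both on the minus strand.
Sncg: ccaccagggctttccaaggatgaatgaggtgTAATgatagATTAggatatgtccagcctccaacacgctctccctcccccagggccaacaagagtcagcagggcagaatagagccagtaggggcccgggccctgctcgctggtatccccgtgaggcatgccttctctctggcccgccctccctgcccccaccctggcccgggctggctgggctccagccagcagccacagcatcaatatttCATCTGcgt
Pou4f1: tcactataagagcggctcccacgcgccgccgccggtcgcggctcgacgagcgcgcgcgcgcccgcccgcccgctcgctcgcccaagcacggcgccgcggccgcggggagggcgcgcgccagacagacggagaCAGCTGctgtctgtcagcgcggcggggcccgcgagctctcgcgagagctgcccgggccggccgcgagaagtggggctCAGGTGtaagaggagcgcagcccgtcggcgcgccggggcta

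Sncg held 2 matches to TAAT, which began 219 and 210 bases before the start, and 1 to CANNTG at 9 bases before it. Pou4f1 held 2 matches to CANNTG, at 118 and 41 bases before the start, and none to TAAT. Of 32851 mouse promoters of the same length, 66.2% held CANNTG and 54.9% held TAAT, so either motif is common by its length alone. The promoters of Pou4f2, Isl2 and Ebf3 were also searched and held neither. Their base composition differed. Pou4f1 had 47 CpG and Ebf3 had 43, against 17 in Pou4f2, 16 in Isl2, 7 in Sncg and a median of 6 over all promoters.

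From D20 to D30, 6 of the 8 genes fell and 1, Thy1, rose. Of all 46949 features tested, 26.8% passed the threshold in this comparison, 13% lower and 13.9% higher. The threshold was an adjusted p below 0.01 in the quasi-likelihood test of edgeR, and 7 members could be tested. Pou4f3 had too few reads for the filter on low counts. The median log2 fold change of the 7 was -2.86, beside -0.04 over all features tested. All 6 organoids of D30 lay below all 6 of D20 in each of the 6 genes that fell, and 9.34% of all features were separated in this way. These 6 were already called lower in the same organoids, so their separation is a description and no further support. Over all features, 4385 were separated downwards and 6089 were called lower. Such a separation downwards was found in 2.29% of features from D22 to D25 and in 2.15% from D25 to D30. The level of each gene in each organoid is given as normalized CPM, which is scaled by library size and composition and not by gene length.

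**Figure D1:**
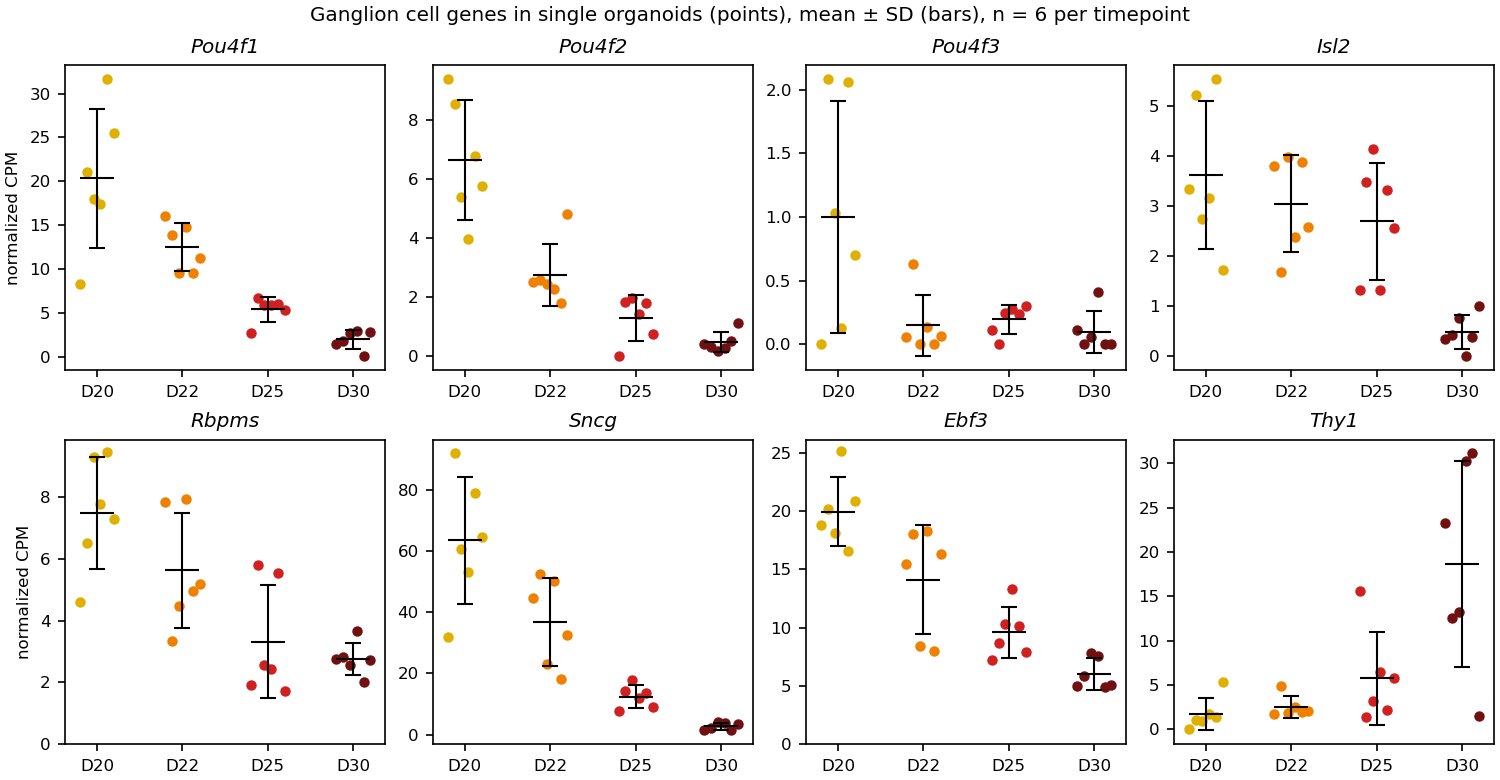
Normalized CPM (vertical axes, 1 panel per gene, each from its own scale) of the 8 ganglion cell genes at D20, D22, D25 and D30. Points are single organoids, and bars are the mean ± SD of 6. In the panels of the 6 genes that fell, every D30 organoid lies below every D20 organoid, as in 9.34% of all features. These 6 were called lower in the same organoids. Thy1 is spread from 1.5 to 31.1 CPM at D30.

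Among the transcription factors, Pou4f1 (ENSMUSG00000048349, chromosome 14, 104461676 to 104467999 of GRCm38), which marks most ganglion cells of the adult mouse retina, lay between 8.32 and 31.7 CPM at D20 with a median of 19.6 CPM. It lay between 9.50 and 16 CPM at D22 (median 12.5), between 2.66 and 6.69 CPM at D25 (median 5.86) and between 0.0653 and 2.89 CPM at D30 (median 2.28). Every organoid of D25 was below every organoid of D22, and every organoid of D30 was below every organoid of D20, whereas D25 and D30 overlapped by 1 organoid of D25. Pou4f1 was 10.3-fold lower at D30 than at D20, a log2 fold change of -3.37 (SE 0.37, adjusted p = 1.159e-08 in edgeR).

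Pou4f2 (ENSMUSG00000031688, chromosome 8, 78433010 to 78436645), the member that acts earliest in differentiation, ranged from 3.96 to 9.37 CPM at D20 with a median of 6.26 CPM. At D30 it ranged from 0.174 to 1.11 CPM with a median of 0.353 CPM, which is 3 to 20 reads per organoid. No organoid of D30 reached the level of any organoid of D20, and the log2 fold change was -3.80 (SE 0.49, adjusted p = 2.744e-07). At D25, replicate 1 had no read of Pou4f2, where 3 reads would have been 0.171 CPM, while the other 5 organoids had 12 to 32 reads.

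Pou4f3 (ENSMUSG00000024497, chromosome 18, 42394539 to 42397249), the family member that is also required in hair cells of the inner ear, was near the limit of detection. At D20 the 6 organoids had 0, 31, 15, 2, 29 and 11 reads, and at D22, D25 and D30 no organoid had more than 9 reads. The 3 organoids with the most reads of Pou4f3 were all from D20, but D20 overlapped each later timepoint. With the filter omitted, its log2 fold change from D20 to D30 was -3.29 (SE 1.06, adjusted p = 0.02), which misses the threshold. Atoh1 and Gfi1, defining factors of hair cells, had at most 3 reads in any organoid.

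Isl2 (ENSMUSG00000032318, chromosome 9, 55538672 to 55546180), which in the mouse marks ganglion cells that project to the opposite side of the brain, had a different course. It ranged from 1.73 to 5.55 CPM at D20 (median 3.26), from 1.67 to 3.99 CPM at D22 (median 3.2) and from 1.33 to 4.15 CPM at D25 (median 2.95). At D30 it ranged from 0 to 0.998 CPM (median 0.410), with no read in replicate 4, where 3 reads would have been 0.190 CPM. The first 3 timepoints overlapped widely, and every organoid of D30 lay below every organoid of the earlier ones. An antisense gene that overlaps Isl2, Gm17226, had 78 reads in all 24 libraries together. Whether the counting used the strand is not stated in the sources used here, so reads of the pair cannot be told apart with certainty.

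Ebf3 (ENSMUSG00000010476, chromosome 7, 137193673 to 137314445), which is made in ganglion cells and also in some amacrine cells, fell in smaller steps. It ranged from 16.6 to 25.1 CPM at D20 (median 19.5), from 7.98 to 18.3 CPM at D22 (median 15.9), from 7.24 to 13.3 CPM at D25 (median 9.40) and from 4.90 to 7.82 CPM at D30 (median 5.46). Each timepoint overlapped the next, while D20 and D30 did not overlap. Its log2 fold change from D20 to D30 was -1.73 (SE 0.21, adjusted p = 6.187e-08). The summed level of 8 amacrine markers, led by Tfap2b, was 110 to 190 CPM at D20 and 82.4 to 232 CPM at D30. Of 7 tested, 1 was higher and 1 lower, where 25.1% of annotated genes tested were higher and 16.7% lower. The part of amacrine cells in the level of Ebf3 was not tested.

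Sncg (ENSMUSG00000023064, chromosome 14, 34370274 to 34374789) encodes gamma-synuclein, an abundant protein of ganglion cell bodies and axons. It ranged from 32.0 to 91.8 CPM at D20 with a median of 62.5 CPM, and from 18.1 to 52.5 CPM at D22 (median 38.6). It ranged from 7.64 to 17.9 CPM at D25 (median 12.7) and from 1.37 to 3.94 CPM at D30 (median 2.79). Apart from D20 and D22, no 2 timepoints overlapped. Its fall of 23.4-fold from D20 to D30 was the largest among the 7 tested members (log2 fold change -4.55, SE 0.31, adjusted p = 6.494e-13).

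Rbpms (ENSMUSG00000031586, chromosome 8, 33782643 to 33929863) is an RNA-binding protein that within the retina is found almost only in ganglion cells, although smooth muscle and pericytes make it too. It ranged from 4.61 to 9.46 CPM at D20 (median 7.54) and from 2.02 to 3.65 CPM at D30 (median 2.73). The 6 organoids of D30 all lay below those of D20, and the log2 fold change was -1.45 (SE 0.29, adjusted p = 0.0001531), the smallest fall among the members that changed. At D25 the organoids were spread from 1.71 to 5.79 CPM, and those of D30 lay within that range. Over the same days, 6 of 8 mural and fibroblast markers, led by Pdgfra, were higher at D30 than at D20. Of all annotated genes tested, 25.1% were higher. The summed level of these mural and fibroblast markers went from 15.6 to 45.4 CPM at D20 to 73.1 to 333 CPM at D30. Their part in the levels of Rbpms and Thy1 was not tested.

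When the members changed differed between steps. From D20 to D22, 0 of the 7 tested members passed the threshold in edgeR or in DESeq2, in a comparison in which 1.9% of all features did. At an unadjusted p below 0.05, 4 members were lower, namely Pou4f1, Pou4f2, Sncg and Ebf3, as were 7.15% of all features. Pou4f2 had the largest difference of this step (log2 fold change -1.28, SE 0.42, adjusted p = 0.0788). From D22 to D25, 5.28% of all features passed and 1 member did, Sncg, with a log2 fold change of -1.57 (SE 0.27, adjusted p = 0.0002265). From D25 to D30, 3.51% of all features passed and 3 members fell, namely Sncg, Isl2 and Pou4f1.

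Sncg fell by 2.19 on the log2 scale in this last step (SE 0.29, adjusted p = 6.954e-06) and Isl2 by 2.43 (SE 0.44, adjusted p = 0.0004552). In Isl2 the earlier steps had log2 fold changes of -0.25 (adjusted p = 0.807) and -0.18 (adjusted p = 0.834), so the fall that passed the test lay after D25. Pou4f1 was close to the threshold in both later steps, at -1.21 (SE 0.33, adjusted p = 0.0159) and then -1.45 (SE 0.36, adjusted p = 0.00926), and the second call was lost when any of 18 of the 24 organoids was left out. In Ebf3 and Rbpms no single step passed. Their difference passed over the whole interval and in the joint test of all 4 timepoints, which 27.2% of features and all 7 tested members passed.

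**Figure D2:**
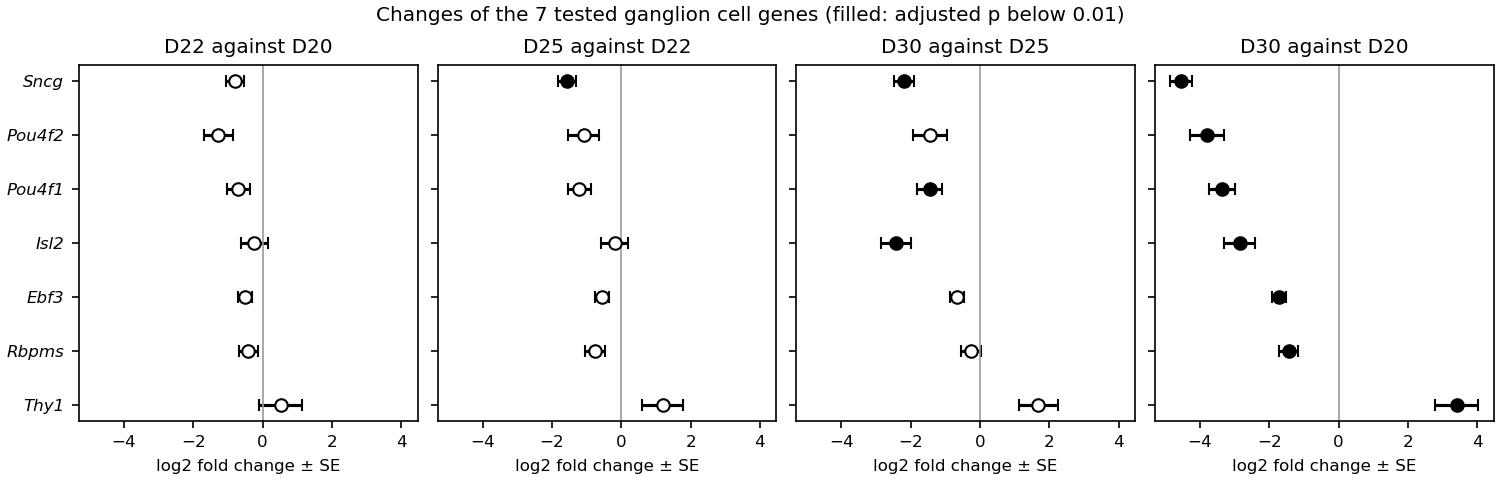
Log2 fold change (horizontal axes) with its SE for the 7 tested ganglion cell genes in the 3 steps and over the whole interval. Filled points passed an adjusted p of 0.01. No point is filled for D22 against D20, 1 is for D25 against D22, 3 are for D30 against D25 and all 7 are for D30 against D20, with Thy1 to the right of 0.

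Per kilobase of exon, the order of the members changed over time. Sncg was highest at D20 with 74.5 ± 24.3 CPM per kb (SD, n = 6), followed by Pou4f1 with 4.35 ± 1.70 CPM per kb. Ebf3, Pou4f2, Isl2, Rbpms, Thy1 and Pou4f3 came next, from 2.16 down to 0.418 CPM per kb, and each of these 6 overlapped the next within 1 SD. At D30 Thy1 was first with 6.23 ± 3.88 CPM per kb and overlapped Sncg with 3.17 ± 1.34 CPM per kb. The other 6 lay between 0.0406 and 0.653 CPM per kb, and neighbours in this order again overlapped within 1 SD.

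The members that fell did not all fall in proportion. The ratio of read counts of 2 genes within an organoid does not depend on how the library was scaled, and the 15 ratios among the 6 falling genes were compared between D20 and D30. These 6 genes were picked because they fell, so the ratios are a description without a test. Sncg to Rbpms went from a mean log2 ratio of 3.04 ± 0.41 (SD, n = 6) at D20 to -0.12 ± 0.55 at D30, and Sncg to Ebf3 went from 1.61 ± 0.59 to -1.24 ± 0.47. These 2 ratios and those of Pou4f2 and Pou4f1 to Rbpms were the 4 that did not overlap between the timepoints. Ebf3 to Rbpms overlapped, at 1.43 ± 0.46 and 1.12 ± 0.28. Among Sncg, Pou4f1, Pou4f2 and Isl2 all 6 ratios overlapped too, but their SDs at D30 were wide, from 1.17 to 2.71. At D30, Isl2 had 0 reads in replicate 4, Pou4f1 had 1 read in replicate 5, and Pou4f2 had 3 to 20 reads per organoid. The overlap of these 6 ratios therefore does not show that the 4 genes fell in proportion.

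**Figure D3:**
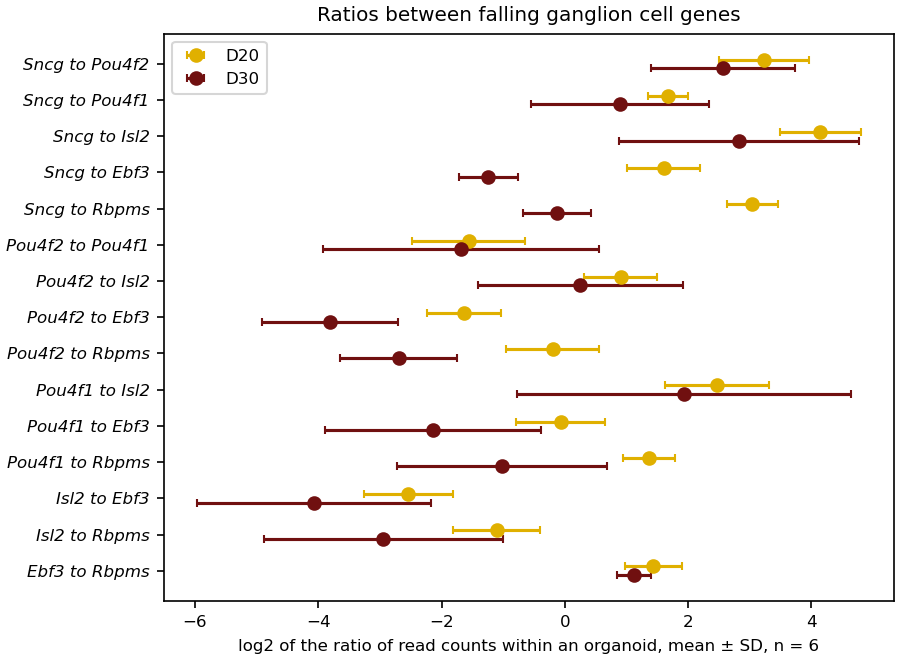
Mean log2 ratio of read counts within an organoid (horizontal axis) for the 15 pairs of falling ganglion cell genes at D20 and D30. Bars are the SD of 6 organoids. The ratios of Sncg to Ebf3 and Sncg to Rbpms lie furthest apart, by 2.85 and 3.16 on the log2 scale.

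Over the 24 organoids Pou4f1 and Sncg had a Pearson correlation of 0.958 of their log2 levels, and each was among the 3 genes most like the other out of 10853 compared. This measure is a description. It follows the timepoints, which the organoids share. After the timepoint means were taken away the correlation was 0.772, the highest for either gene by that measure. Organoids with more Pou4f1 than others of their age also had more Sncg. Prdm13, a regulator of amacrine cell subtypes, came next for Pou4f1 (0.949 over all organoids, 0.732 within timepoints). It was followed by Rhobtb1 over all organoids (0.935) and by Gm37818 within timepoints (0.730). Rhobtb1 and the noradrenaline transporter Slc6a2 were the genes most like Sncg (0.977 and 0.959). Within timepoints Chrna3 and Rasgef1b came after Pou4f1 for Sncg (0.745 and 0.723). The genes most like Ebf3 over all organoids were Sncg, E2f1 and Rhobtb1 (0.924, 0.900 and 0.892). Within timepoints they were Rcan2, Scn7a and Tmem115 (0.722, 0.683 and 0.667), and the correlation of Ebf3 with Sncg was 0.649.

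Thy1 (ENSMUSG00000032011, chromosome 9, 44043384 to 44048579) was the exception among the 8. It encodes a surface protein that in the retina serves as a ganglion cell marker, but many other neurons and fibroblasts carry it. At D20, 5 organoids lay between 0 and 1.78 CPM and replicate 6 had 5.31 CPM. At D22 they ranged from 1.78 to 4.88 CPM (median 2.00), and at D25 from 1.39 to 15.6 CPM (median 4.49). At D30 the organoids had 23.3, 12.5, 13.2, 30.3, 31.1 and 1.5 CPM. Of these, 5 lay above every organoid of D20 and D22, and replicate 6 lay within the range of D20. Thy1 was higher at D30 than at D20, with a log2 fold change of 3.41 (SE 0.63, adjusted p = 5.876e-05). With any 1 of the 24 organoids left out it was 3.16 to 4.18, the largest without replicate 6 of D20. No single step passed the threshold.

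The organoids with much Thy1 also had much of a list of 8 markers of cerebral cortex type neurons, led by Neurod6. Neurod6 is used in the paper as a gene of postmitotic amacrine cells. Tbr1, another of the 8, is also among the ganglion cell fate factors read below. The list of 8 is therefore not particular to cortex type neurons. The summed level of that list was 12.5 to 366 CPM at D30, where replicate 6 had both the lowest sum and the lowest Thy1 and replicate 5 had both the highest sum and the highest Thy1. At D25, replicate 1 had the highest of both, 396 and 15.6 CPM, and replicate 2 the lowest of both, 16.3 and 1.39 CPM. At D20, replicate 6 had the highest of both, 247 and 5.31 CPM, but replicate 1, in which Thy1 had no read, had a sum of 56.6 CPM, above those of replicates 2 and 5. At D30, replicate 3 had a lower sum than replicate 2, 55.8 against 212 CPM, and slightly more Thy1. At D22, when the sums lay between 18.3 and 34.5 CPM, the order differed. Of the 8 cortex type markers, 1 was higher at D30 than at D20 (Camk2a) and 1 lower (Fezf2). Among all annotated genes tested, 25.1% were higher and 16.7% lower. At D22 up to 2 of the cortex type markers had no read in an organoid.

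**Figure D4:**
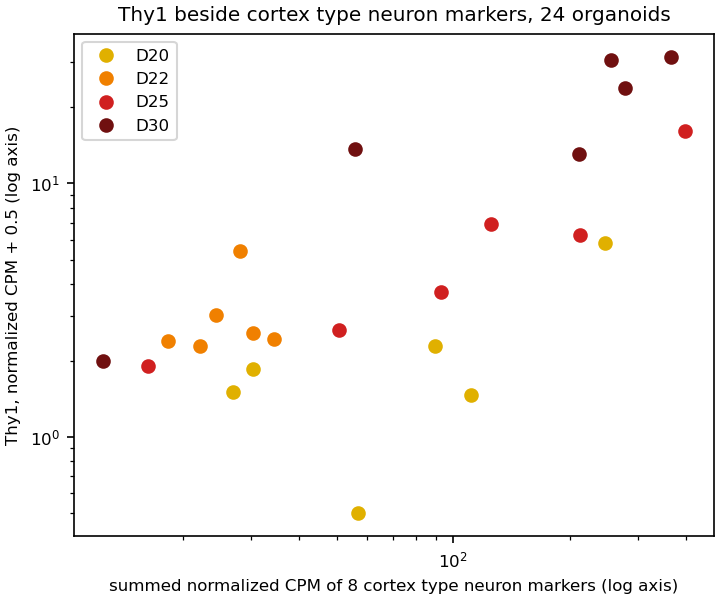
Thy1 in normalized CPM with 0.5 added (vertical log axis) beside the summed CPM of 8 cortex type neuron markers (horizontal log axis) in the 24 organoids, coloured by timepoint. The D30 organoid with the lowest sum, 12.5 CPM, has the lowest Thy1 of D30, and the D25 organoid with the highest sum, 396 CPM, has the highest of D25.

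With the log2 of that sum as a covariate, which was chosen after both had been seen and so gives no test here, the log2 fold change of Thy1 from D20 to D30 was 2.69 in place of 3.41. The genes most like Thy1 over the 24 organoids were Ppm1e, the tubulin Tubb2a and the glutamate receptor subunit Grin2b (0.932, 0.923 and 0.921), and within timepoints Tubb2a, Lix1 and Dpf1 (0.935, 0.926 and 0.913).

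Other genes of ganglion cell development were read from a list of 16 fate factors. Of the 14 that could be tested, 6 were lower at D30 than at D20 and 1 was higher, where 16.7% of all annotated genes tested were lower, with a median log2 fold change of -0.81. Onecut1, a factor of early-born ganglion and horizontal cells, fell by 4.85 (SE 0.33, adjusted p = 7.825e-13), from a mean of 21.9 CPM at D20 to 0.741 CPM at D30. Barhl2, a factor of ganglion and amacrine cell subtypes, fell by 2.35 (SE 0.24, adjusted p = 2.229e-09). Onecut2, Sox4 and Ebf1 fell by 1.3, 1.23 and 1.51 on the log2 scale, and the remaining gene that fell was Sox11. Myt1, a zinc finger factor of differentiating neurons, was 0.67 higher (SE 0.10, adjusted p = 3.153e-06). Ebf1 and Sox11 were named after their values had been seen, and most genes of the list are also used by other neurons.

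Atoh7, which starts the ganglion cell programme, had 3 to 22 reads per organoid at D20 and at most 1 at D30, too few for the filter. Isl1, the partner of Pou4f2, was at 23.1 ± 7.46 CPM (SD, n = 6) at D20, 11.3 ± 5.02 CPM at D22 and 38.3 ± 11.3 CPM at D30. Its log2 fold change of 0.73 from D20 to D30 did not pass (SE 0.24, adjusted p = 0.0179), and bipolar and amacrine cells make it too. Eomes, a factor of light-sensitive ganglion cells, had 6.01 ± 4.45 CPM at D20 and 5.60 ± 3.24 CPM at D30 (adjusted p = 0.89).

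Genes of axons and of mature ganglion cells were read from a list of 18. Of the 17 tested, 4 were higher at D30 than at D20, a share near the 25.1% of annotated genes that were higher, with a median log2 fold change of 0.45. Kcnd2, a potassium channel, rose by 3.37 (SE 0.63, adjusted p = 7.804e-05), the sodium channel Scn1a by 1.81, the peripheral neurofilament Prph by 1.28 and the heavy neurofilament Nefh by 1.09. Nefl, the light neurofilament, had 83.0 ± 21.4 CPM at D20 and 149.5 ± 77.0 CPM at D30 (SD, n = 6), and its difference did not pass (adjusted p = 0.0233). The vesicular glutamate transporter Slc17a6 had 8.02 ± 2.87 and 15.7 ± 10.8 CPM and did not pass either (adjusted p = 0.0647). Opn4, the photopigment melanopsin of light-sensitive ganglion cells, had no read in any organoid at D20 and 2 to 11 reads at D30. These genes are shared with cortical and other neurons. Their summed level was 626 to 945 CPM at D20, 525 to 1537 CPM at D25 and 361 to 1443 CPM at D30. The lowest organoid of D30 was replicate 6, below every organoid of D20, and the highest of D25 and D20 were replicates 1 and 6, the organoids that also had the lowest or the highest sums of cortex type markers of their timepoints. The part of other neurons in these levels was not tested.

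**Figure D5:**
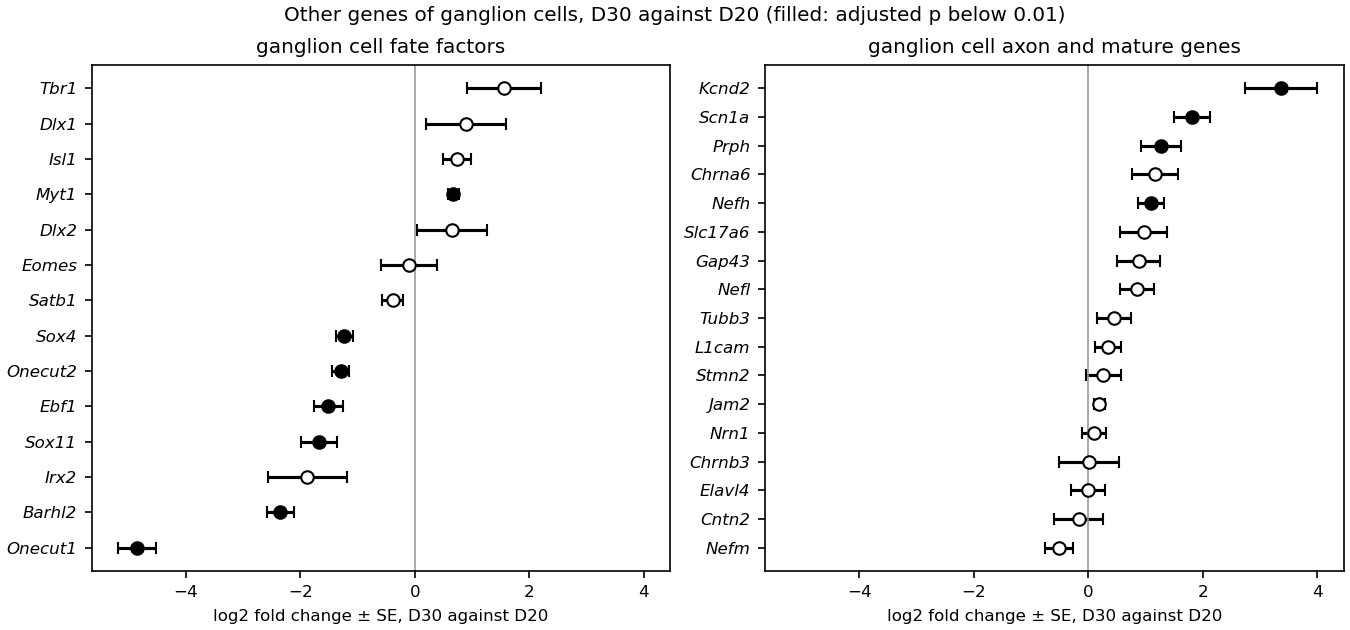
Log2 fold change from D20 to D30 (horizontal axes) with its SE for 14 tested fate factors and 17 tested axon and mature genes of ganglion cells. Filled points passed an adjusted p of 0.01. In the left panel 6 filled points lie below 0 and 1 above, and in the right panel all 4 filled points lie above 0.

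Other cells that make some of these genes were read from marker lists as well. Of all annotated genes tested, 25.1% were higher at D30 than at D20 and 16.7% were lower. Peripheral sensory neurons make Pou4f1, Isl2 and Prph, but their markers Tlx3 and Scn10a had at most 3 reads in any organoid. Of the rest of that list, led by Isl1, 1 of 3 tested genes was higher at D30 (Prph). Of hair cell markers, led by Myo6, 1 of 2 tested genes was higher (Myo6), and the sums were 92.8 to 131 CPM at D20 and 128 to 240 CPM at D30. Nearly all of that sum was Myo6, with means of 105 CPM at D20 and 173 CPM at D30. Myo7a, the other tested gene, had means of 2.92 and 3.38 CPM. The summed levels of horizontal cell markers, led by Sept4, overlapped between D20 (148 to 185 CPM) and D30 (123 to 164 CPM). Of the 4 tested, Onecut1 was lower, as given above, and Calb1 was higher, at 2.81 ± 1.23 and 14.6 ± 5.79 CPM (SD, n = 6). The summed levels of Cajal-Retzius markers, led by Reln, lay at 186 to 224 CPM at D20 and at 322 to 480 CPM at D30. Of these markers, 2 of 4 tested were higher, Calb2 and Ndnf. Reln and Trp73 did not pass in edgeR (adjusted p = 0.742 and 0.353), and Lhx5 had too few reads for the filter. The paper uses the protein of Calb2 as a marker of amacrine, horizontal and ganglion cells. Bipolar markers, led by Prkca, and Muller glia markers, led by Apoe, were higher in 6 of 6 and 5 of 6 genes at D30.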

How the data were processed

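RNA of 24 individual MROs was sequenced as single-end reads on a HiSeq2500. Per the labels and the paper, the authors aligned them with HISAT2 to GRCm38/mm10, assembled transcripts with StringTie (version 1.3.3) and counted reads per gene or assembled locus with HTSeq (version 0.6.1). The deposited values are these counts, without normalization. The strand setting of the counting is not given in the sources used here.

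After removal of features whose base mean was under 10, 46949 remained, of which 16253 are annotated genes. The counts, scaled by TMM, went into edgeR (version 4.0.16), whose quasi-likelihood test was run on the 24 organoids together. P-values were adjusted over every feature by the Benjamini-Hochberg method, and 0.01 was the threshold. Samples were grouped by the timepoint in their labels. Replicate numbers are not shared organoids, and same-numbered organoids did not deviate together (correlations from -0.0907 to 0.257), so no block was used. The scripts were tested on simulated data.

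The members and the marker lists were chosen with earlier results of these data known. The genes named were all 8 members, up to 5 genes by adjusted p from the lists of fate factors and of mature genes, 6 further genes of those lists, the leading gene of each marker list, and the 3 genes most like each member with at least 100 normalized counts on average. Genes outside this rule are Ebf1, Sox11, Tbr1, Camk2a, Fezf2, Calb1, Calb2, Ndnf, Trp73, Lhx5, Myo7a, Gm17226 and the markers given by reads. A gene of the peripheral sensory neuron list, and the summed level of that list, are not reported here. Gene names and coordinates came from GENCODE on the same build, and promoters from RefSeq. Alternatives were DESeq2 (version 1.42.0), its size factors, other filters, annotated genes only, the replicate block, compared timepoints only, each organoid left out, and the cortex covariate. Counting intervals and floors cover counting error only, and 3 counts were taken as the floor.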

Additional observations from a re-analysis of the deposited data

Results flagged for a closer look

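In 8 of 32 groups of 6 organoids, the highest or lowest stood further from the rest than Dixon's critical value for 6 samples allows. That value is set for about 1 in 20 among independent, normally distributed values. The CPM used here come from counts that reach 0, and the groups share organoids, so 8 of 32 cannot be compared with that rate. Thy1 had such an organoid at D20 (replicate 6, 5.31 CPM, next 1.78), at D22 (replicate 2, 4.88 CPM, next 2.53) and at D25 (replicate 1, 15.6 CPM, next 6.42). The high organoids of D20 and D25 also had the highest sum of cortex type neuron markers of their timepoint, and that of D22 did not. Pou4f2 had a high organoid at D22 (replicate 6, 4.79 CPM, next 2.58) and at D30 (replicate 6, 1.11 CPM, next 0.522), the latter being the organoid with the lowest Thy1 of D30. Pou4f1 had a low organoid at D25, replicate 1 with 2.66 CPM (next 5.31), the organoid in which Pou4f2 had no read. Pou4f3 had a high organoid at D22 (replicate 2, 0.628 CPM) and at D30 (replicate 4, 0.413 CPM), which are 9 and 6 reads.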

How the results depend on the processing

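All 7 tested members differed between D20 and D30, and among the 4 timepoints, under every alternative run and with any organoid left out (7 in each case). From D20 to D22 the count of 0 became 1 with the compared timepoints only (Pou4f2, adjusted p = 0.00722), and stayed 0 with organoids left out. From D22 to D25 the count of 1 became 2 with no filter and 2 with the compared timepoints only, as Pou4f1 passed, and was 1 to 2 with organoids left out (2 without replicate 5 of D30). From D25 to D30 the count of 3 was 2 to 4 with organoids left out. The fall of Pou4f1 in this step did not pass with DESeq2 size factors (adjusted p = 0.0114), the replicate block (log2 fold change -1.46, adjusted p = 0.0158) or the compared timepoints only (adjusted p = 0.0427), and that of Pou4f2 passed without replicate 1 of D25 (-1.70). The block changed no other call of a member. With the cortex covariate, chosen after seeing the data, the step from D22 to D25 turned to 0.50 in Isl2 and to -0.65 in Thy1, neither of which had passed before. The cause of these changes was not tested. With other pseudocounts the number of ratios without overlap stayed at 4. Levels below about 3 reads, which is at most 0.22 CPM, could not be told from 0 at this depth. This concerns Pou4f3 above all, and single organoids in Pou4f1, Pou4f2, Isl2 and Thy1. At D30, Pou4f2 had 3 to 20 reads per organoid and Isl2 had 0 to 18, so small differences between D30 organoids in these genes were not detectable.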
